A study of Homo sapiens with 11 samples.

Results

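Small nucleolar RNAs (snoRNAs) and small Cajal body-specific RNAs (scaRNAs) were examined in RNA-Seq of HCC78, a lung adenocarcinoma cell line whose genome holds a U2AF1 S34F allele beside a fusion of SLC34A2 and ROS1. The members were the genes whose name begins with SNORA, SNORD or SCARNA and whose mean over the 9 libraries was at least 10 FPKM (a count of sequenced fragments scaled to transcript length and to library size). Of 859 genes with such names, 98 met this limit, out of 57773 genes in the table. By name they comprised 71 H/ACA genes (SNORA), 12 C/D genes (SNORD) and 15 Cajal body genes (SCARNA). Of the 98, 11 were annotated with a gene type other than snoRNA. Among these, SNORA76 (lincRNA) now carries the symbol SNHG25. Because the mean FPKM chose the members, their levels below are a description and carry no test.

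SnoRNAs guide the chemical modification of ribosomal RNA in the nucleolus. H/ACA RNAs bind dyskerin (DKC1) and direct pseudouridylation, while C/D RNAs bind fibrillarin (FBL) and direct ribose methylation. ScaRNAs, which may carry either or both kinds of box, act in Cajal bodies on the RNAs of the spliceosome. Most human snoRNAs are cut from introns of a host transcript after splicing. A few, such as U3 (SNORD3 genes) and U8 (SNORD118), are made from genes of their own and serve the cleavage of pre-ribosomal RNA rather than its modification.

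The lines carried a lentiviral, doxycycline-inducible U2AF1 with FLAG and 6xHA tags, either wild type (WT) or S34F. Each line was a stably integrated derivative of HCC78, so its endogenous S34F allele was present in every group. The groups were WT dox+ (2 libraries), S34F dox+ (2), WT dox- (2), S34F dox- (1, numbered replicate 2 in its label) and parental HCC78 (2), which the sample labels give as dox- and a supplementary description of the study as dox+. S34F made up 12% and 14% of U2AF1 mRNA in WT dox+ per the labels, 62% and 65% in S34F dox+, 33% in both WT dox- libraries, 28% in S34F dox- and 32% in both parental libraries. U2AF1 itself was at 277.6 and 299.1 FPKM in WT dox+, 164.4 and 222.8 FPKM in S34F dox+ and between 102.8 and 115.1 FPKM in the other 5 libraries. Nothing in the labels says whether replicates were separate cultures, so p-values measure the spread between libraries only, which may be technical. In bulk RNA, fewer cells that express a gene and less RNA per cell cannot be told apart.

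The epithelial genes EPCAM (407.2 to 545.2 FPKM) and KRT7 (2873 to 4196 FPKM) and the lung lineage factor NKX2-1 (49.1 to 67.8 FPKM) were high in all 9 libraries. The surfactant gene SFTPB was at 0.25 to 2.05 FPKM. The blood gene PTPRC was at 0 to 2.71 FPKM and the fibroblast gene DCN at 0.11 to 2.63 FPKM. Between 13661 and 14688 genes reached 1 FPKM in the 5 libraries labelled dox-, parental cells included, and 15736 to 20896 did so in the 4 labelled dox+. Total counts are not given with FPKM, so the depth behind each value is unknown.

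The 98 members together took 8.75% to 10.8% of all FPKM in a library. Their sum was lowest in WT dox+ replicate 1, at 97419 FPKM, and highest in parental replicate 2, at 132357 FPKM. The 5 highest members accounted for 51.8% to 60.6% of that sum. C/D members were few but high, with a median of their mean levels of 2324 FPKM, against 76.0 FPKM for H/ACA members and 96.7 FPKM for Cajal body members. Over the libraries the C/D sum ran from 53340 to 70644 FPKM, the H/ACA sum from 37057 to 59496 FPKM and the Cajal body sum from 1709 to 2527 FPKM.

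The highest C/D member was SNORD97 (ENSG00000238622.1), within EIF4G2, at 16808 ± 1296 FPKM in WT dox+ (SD, n = 2), 17208 ± 2879 in S34F dox+, 15819 ± 233 in WT dox- and 19847 ± 297 in parental cells, with 15850 in the S34F dox- library. SNORD15B and SNORD15A, a pair within the ribosomal protein gene RPS3, had means over the libraries of 13184 and 9451 FPKM. SNORD3A, a U3 gene, was at 8049 FPKM and SNORD10, within EIF4A1, at 6739 FPKM. SNORD97 was the highest of these in all 9 libraries. The order below it was not fixed, since SNORD3A lay above SNORD15A in the 4 dox+ libraries and below it in the other 5.

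Among H/ACA members SNORA73B (U17, which serves pre-ribosomal RNA processing) was highest, at 10072 ± 34.9 FPKM in WT dox+ and 13161 ± 2562 FPKM in S34F dox+ (SD, n = 2). SNORA18 (ENSG00000207145.1) had a mean of 6111 FPKM, SNORA70 of 5696 FPKM, SNORA31 (ENSG00000253051.1) of 2602 FPKM and SNORA49 of 2135 FPKM. The 5 highest Cajal body members were SCARNA13 (417.2 FPKM), SCARNA10 (364.9 FPKM), SCARNA6 (291.7 FPKM), SCARNA12 (246.3 FPKM) and SCARNA7 (158.8 FPKM). The sum of all 15 Cajal body members stayed below the level of SNORA73B alone in all 9 libraries.

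**Figure D1:**
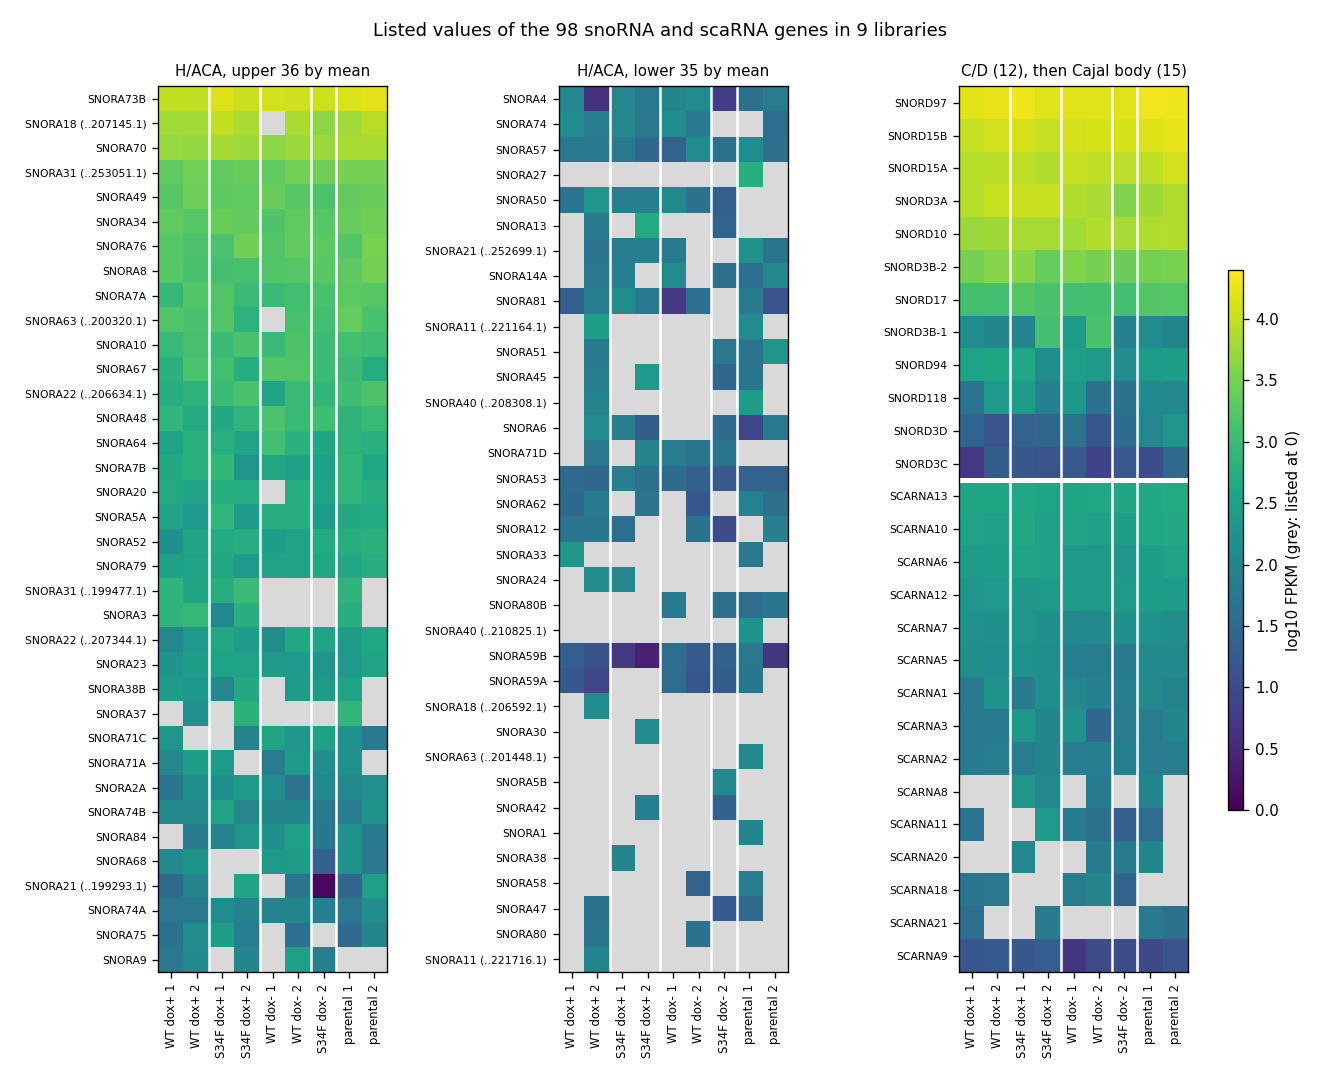
Heat map of the 98 genes (listed downwards by mean within class) in the 9 libraries (across, grouped by condition), with colour for log10 FPKM and grey for a value listed at 0. The 12 C/D genes show no grey, and grey is densest among the H/ACA genes of lowest mean.

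Of the 98 members, 90 lay inside another gene in the RefSeq annotation of GRCh38, without regard to strand, 7 did not, and 1 had no match there. Ribosomal protein genes, with 1 ribosomal protein pseudogene, held 17 members, EIF4A1, EIF4A2 and EIF4G2 held 7, and SNHG genes, which are known as non-coding snoRNA hosts, held 7. Members that share a host could stand far apart or close together. TAF1D held SNORA18 (ENSG00000207145.1) at a mean of 6111 FPKM, SNORA8 at 1783 FPKM, SNORA40 (ENSG00000210825.1) at 21.1 FPKM and SNORA1 at 11.8 FPKM, a 519-fold span, while TAF1D itself was at 210.7 FPKM. TBRG4 held SNORA5A at 445.9 FPKM and SNORA5B at 12.7 FPKM, a 35.2-fold span. At the other end, SNORA6 and SNORA62 within RPSA differed 1.18-fold, and SNORD15B and SNORD15A within RPS3 1.40-fold. Within SNHG17, SNORA71C and SNORA71A differed 1.10-fold, but SNORA71D, also inside it, had a far lower mean than both. The 14 hosts with more than 1 member were counted with each member under a single gene. These spans were chosen after their values were seen. A host and a snoRNA inside it overlap, so reads from one may be counted for the other.

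Most genes with such names were never detected. Of the 406 H/ACA genes by name, 306 (75.4%) were listed at 0 in all 9 libraries, against 383 of 399 C/D genes (96.0%) and 33 of 54 Cajal body genes (61.1%). Another 39 genes had some value above 0 and a mean under 10 FPKM. Of the members, 48 were above 0 in all 9 libraries, namely 26 of 71 H/ACA, 12 of 12 C/D and 10 of 15 Cajal body genes. The other 50 were listed at 0 in at least 1 library, and 25 of them in 5 or more.

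Zeros made up 209 of the 639 H/ACA values (32.7%), none of the 108 C/D values and 22 of the 135 Cajal body values (16.3%). An exact 0 in an FPKM table is a listed value and need not mean that the RNA was absent. Among protein-coding genes at or above the same mean, 1 of 7353 had a zero in any library. Among other small nuclear RNA genes at that level, 6 of 19 did. Zeros were commonest at low level: 57.3% of values among the 32 members with a mean of 10 to 50 FPKM, 21.0% among the 28 at 50 to 200 FPKM, 6.43% among the 19 at 200 to 1000 FPKM and 1.17% among the 19 at 1000 FPKM or more. In the lowest range the share was 62.1% for 27 H/ACA genes and 38.9% for 4 Cajal body genes. The only C/D gene there, SNORD3C, was above 0 in all libraries. It is annotated as lincRNA, and SCARNA9 (antisense) and SNORA59B (sense intronic), also above 0 throughout there, are likewise not of gene type snoRNA. Among the 12 C/D members, 5 were of a gene type other than snoRNA.

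**Figure D2:**
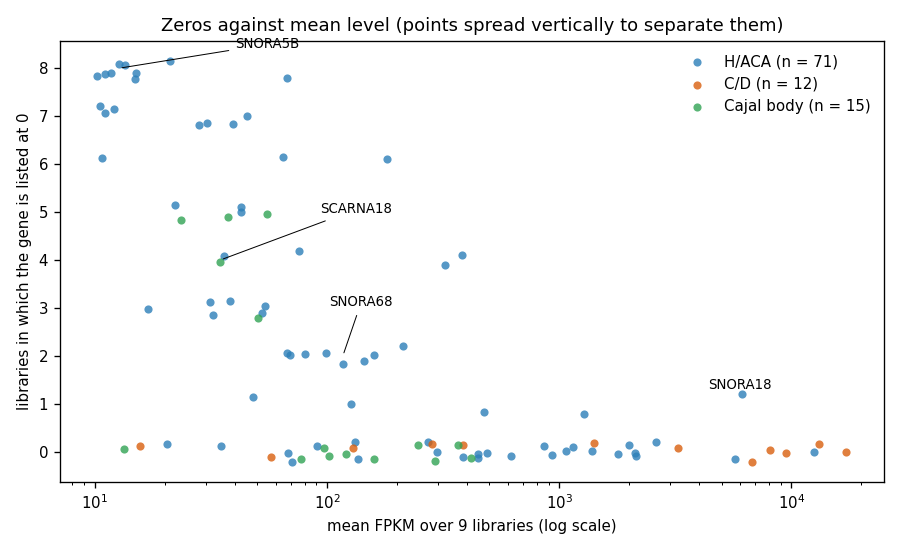
Number of libraries in which each of the 98 genes is listed at 0 (vertical axis, spread slightly to separate points) against its mean FPKM over the 9 libraries (horizontal log axis), coloured by class. All C/D genes lie on the line of 0 zeros, whereas H/ACA genes fill the range up to 8.

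By library, 15 to 36 of the 98 members were listed at 0. The counts were 28 and 16 in WT dox+, 30 and 24 in S34F dox+, 36 and 26 in WT dox-, 24 in S34F dox- and 15 and 32 in parental cells, so the replicates of a group differed by 6 to 17 zeros. WT dox- replicate 1, the library with the most zeros, listed SNORA18 (ENSG00000207145.1) at 0 although the other 8 libraries ranged from 4292 to 10064 FPKM. It was also the only library to list SNORA63 (ENSG00000200320.1) at 0, against 701.5 to 2307 FPKM elsewhere, and SNORA20, against 337.6 to 826.3 FPKM. SNORA84 was listed at 0 only in WT dox+ replicate 1 and SNORA81 only in the S34F dox- library.

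The reverse case was a member above 0 in a single library, which held for 9 genes, all H/ACA. SNORA27 stood at 606.3 FPKM in parental replicate 1 alone. SNORA40 (ENSG00000210825.1), SNORA63 (ENSG00000201448.1) and SNORA1 were also above 0 only in that library, at 190.1, 121.0 and 106.0 FPKM. SNORA18 (ENSG00000206592.1) at 135.1 FPKM and SNORA11 (ENSG00000221716.1) at 92.0 FPKM were seen only in WT dox+ replicate 2. SNORA30 was at 133.7 FPKM in S34F dox+ replicate 2, SNORA38 at 99.9 FPKM in S34F dox+ replicate 1 and SNORA5B at 113.9 FPKM in the S34F dox- library. These 9 passed the limit of a mean of 10 FPKM through that library alone. Parental replicate 1 gave 4 of the 9 and, with 15, had the fewest zeros.

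Members at the limit were above 0 in few libraries. Just inside it were SNORA11 (ENSG00000221716.1; mean 10.2 FPKM, above 0 in 1 library), SNORA80 (10.5 FPKM, above 0 in 2) and SNORA47 (10.8 FPKM, above 0 in 3). Just outside it were SNORA71B (9.62 FPKM), SCARNA4 (9.43 FPKM) and a second SNORA70 gene (ENSG00000206886.1; 8.88 FPKM), each above 0 in 1 library.

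Agreement between the replicates of a group differed by class. The classes also differed in level, with medians of 76.0 FPKM for H/ACA and 2324 FPKM for C/D members. Agreement was not split by level, so the part of level in this difference was not tested. The median absolute difference on the log2(FPKM + 1) scale was 0.73 for H/ACA members in WT dox+, 0.71 in S34F dox+, 0.40 in WT dox- and 0.88 in parental cells. For C/D members it was 0.31, 0.31, 0.28 and 0.26, and for Cajal body members 0.12, 0.45, 0.18 and 0.35, in the same order. Protein-coding genes at the same limit gave 0.12 to 0.19. Replicates lay within 2-fold for 42 of 71 H/ACA members in WT dox+, 44 in S34F dox+, 47 in WT dox- and 37 in parental cells. For C/D members the count was 8 to 11 of 12. A member listed at 0 in both replicates counts here as no difference. Over H/ACA members above 0 in both replicates the medians were 0.60 (43 members), 0.74 (39), 0.56 (35) and 0.69 (41), in the same group order.

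Many members were listed at 0 in 1 replicate of a group. In WT dox+ 20 of the 98 members were at 0 in one replicate and at 10 FPKM or more in the other, in S34F dox+ 18, in WT dox- 16 and in parental cells 21. They fell unevenly, with 16 zeros in WT dox+ replicate 1 and 4 in replicate 2, 13 and 3 in WT dox-, and 2 and 19 in parental cells. The largest such gap was that of SNORA18 (ENSG00000207145.1) in WT dox-, from 0 to 6850 FPKM. For the 48 members above 0 throughout, the median difference was 0.31, 0.44, 0.30 and 0.32 in the 4 groups.

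**Figure D3:**
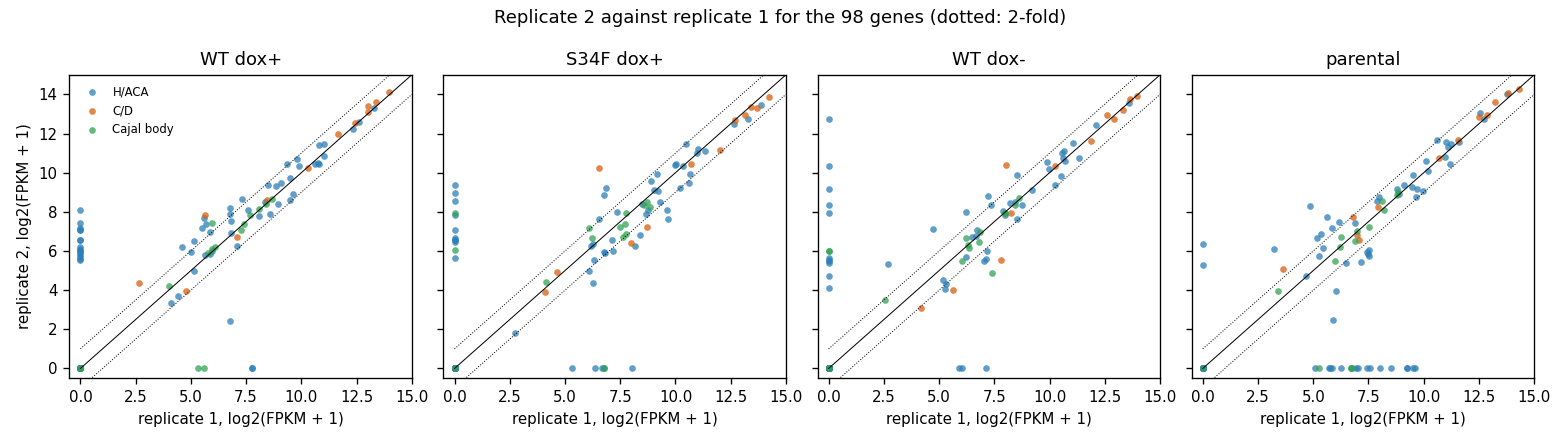
Replicate 2 against replicate 1 on the log2(FPKM + 1) scale for the 98 genes in the 4 groups with 2 libraries, coloured by class, with the line of equality and dotted lines at 2-fold. Points on an axis are genes listed at 0 in 1 replicate; they gather on the vertical axis in WT dox+ and WT dox- and on the horizontal axis in parental cells.

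Among the 48 members above 0 in all libraries, SNORD97 varied least, from 15173 to 20057 FPKM, a 1.32-fold range. SNORD10 (1.43-fold) and SNORD17 (1.45-fold) followed among C/D members. The steadiest Cajal body members were SCARNA13 (1.41-fold), SCARNA12 (1.43-fold) and SCARNA2 (67.3 to 100.8 FPKM), and the steadiest H/ACA members were SNORA31 (ENSG00000253051.1; 1.51-fold), SNORA70 (1.54-fold) and SNORA10 (1.58-fold). The highest value was within 2-fold of the lowest for 6 of 12 C/D, 6 of 10 Cajal body and 7 of 26 H/ACA members, against 86.5% of protein-coding genes above 0 throughout.

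The genes with promoters or processing roles of their own were not uniform. U3 was listed under 5 genes whose sequences are near-identical, so reads may be split among them and each value is uncertain. SNORD3A ranged from 3752 to 11040 FPKM and SNORD3B-2 from 2249 to 4098 FPKM. SNORD3B-1 was at 1210 FPKM in S34F dox+ replicate 2 and 1364 FPKM in WT dox- replicate 2, and between 84.5 and 261.8 FPKM in the other 7 libraries. SNORD3D was at 110.1 and 214.6 FPKM in parental cells and between 14.4 and 48.0 FPKM elsewhere, and SNORD3C was at 5.38 to 33.1 FPKM. U8 (SNORD118) was at 49.6 and 229.7 FPKM in WT dox+, 256.4 and 84.0 FPKM in S34F dox+ and 219.0 and 44.9 FPKM in WT dox-, 45.2 FPKM in S34F dox- and 124.2 and 111.8 FPKM in parental cells. Its replicates lay far apart in the first 3 of these groups and close together in parental cells. SCARNA2, which is also transcribed on its own, stayed between 67.3 and 100.8 FPKM.

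The values of some short members moved in steps. For a set of 8 members (SCARNA18, SNORA31 (ENSG00000253051.1), both SNORA22 genes, SNORA5A, SNORA71A, SNORA71C and SNORA71D) the 60 values above 0 were whole multiples of 1 value per library, to within 0.011 FPKM. This step was 53.9 and 58.6 FPKM in WT dox+, 86.6 and 91.9 FPKM in S34F dox+, 74.4 and 50.0 FPKM in WT dox-, 24.7 FPKM in S34F dox- and 42.4 and 61.0 FPKM in parental cells. The sets were found by this property, so their whole multiples are no separate finding, and what 1 step stands for was not tested.

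SCARNA18 took 1 step in WT dox+ replicates 1 and 2, 1 and 2 steps in WT dox-, 1 step in S34F dox- and none in S34F dox+ or parental cells. SNORA31 (ENSG00000253051.1), in the same set, took 24 to 111 steps. A second set of 4 members (SNORA49, SNORA50, SNORA80B and SCARNA11) had steps of 21.5 to 80.2 FPKM. SNORA50 took 1 and 4 steps in WT dox+, 1 and 1 in S34F dox+, 2 and 1 in WT dox-, 1 in S34F dox- and none in parental cells. SNORA49 took 26 to 70. The step of S34F dox+ was above that of WT dox+ in both sets, so a step there is a larger FPKM. A single step was the value in 11 of the 60 values above 0 in the first set and in 13 of 26 in the second.

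The comparison of S34F dox+ with WT dox+ sets the induced S34F line against the induced WT line. Isoform, line and the level of U2AF1 differ together here and cannot be told apart. SNORA68, an H/ACA RNA, was at 111.5 and 185.8 FPKM in WT dox+ and listed at 0 in both S34F dox+ libraries. SCARNA18, within TMEM167A, was at 53.9 and 58.6 FPKM in WT dox+ and likewise listed at 0 in both. SCARNA18 was thus at 1 step in each WT dox+ library, while 1 step in S34F dox+ was 86.6 and 91.9 FPKM. The groups did not overlap for either gene. In a limma fit across 15179 genes, those averaging 1 FPKM or more, both were called lower at a Benjamini-Hochberg adjusted p under 0.05, at 0.00261 for SNORA68 and 2.48e-05 for SCARNA18. No fold is given against a group listed at 0. On the log2(FPKM + 1) scale the fitted difference was -7.18 (SE 0.46) for SNORA68 and -5.84 (SE 0.17) for SCARNA18. Both values depend on the added 1, and the zeros of S34F dox+ added no spread to either SE. SNORA68 was in no set of steps, but its values above 0 were only 0.94 to 5.26 times the step of the first set. It was at 0.94 of that step in S34F dox-. Without doxycycline SNORA68 was at 23.3 FPKM in the S34F line, against 234.6 and 263.2 FPKM in the WT line. SCARNA18 was at 24.7 FPKM in S34F dox-, against 74.4 and 100.0 FPKM in WT dox-, and at 0 in both parental libraries.

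Of the 98 members 2 were therefore called lower and none higher, where 0.0329% and 0.0198% of all genes tested were. Without adjustment 10 members had a p under 0.05 and were higher, beside 4.01% of all genes, and 3 were lower, beside 2.77%. Both genes were named among the markers of these RNAs with this result known, so their calls are no independent evidence. The call of SNORA68 was lost with all genes tested (adjusted p = 0.0655 in limma) and with 50 added in place of 1 (adjusted p = 0.255). The count rose to 4 members without WT dox+ replicate 1, all lower, and to 4 without S34F dox+ replicate 1, 2 of them higher.

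The host of SCARNA18 did not follow it to 0. TMEM167A was at 18.8 and 14.0 FPKM in WT dox+ and 18.6 and 17.2 FPKM in S34F dox+ (0.13, SE 0.16, limma adjusted p = 0.916), and the sign of this small difference turned without WT dox+ replicate 2. This host was chosen after the values of SCARNA18 were seen.

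**Figure D4:**
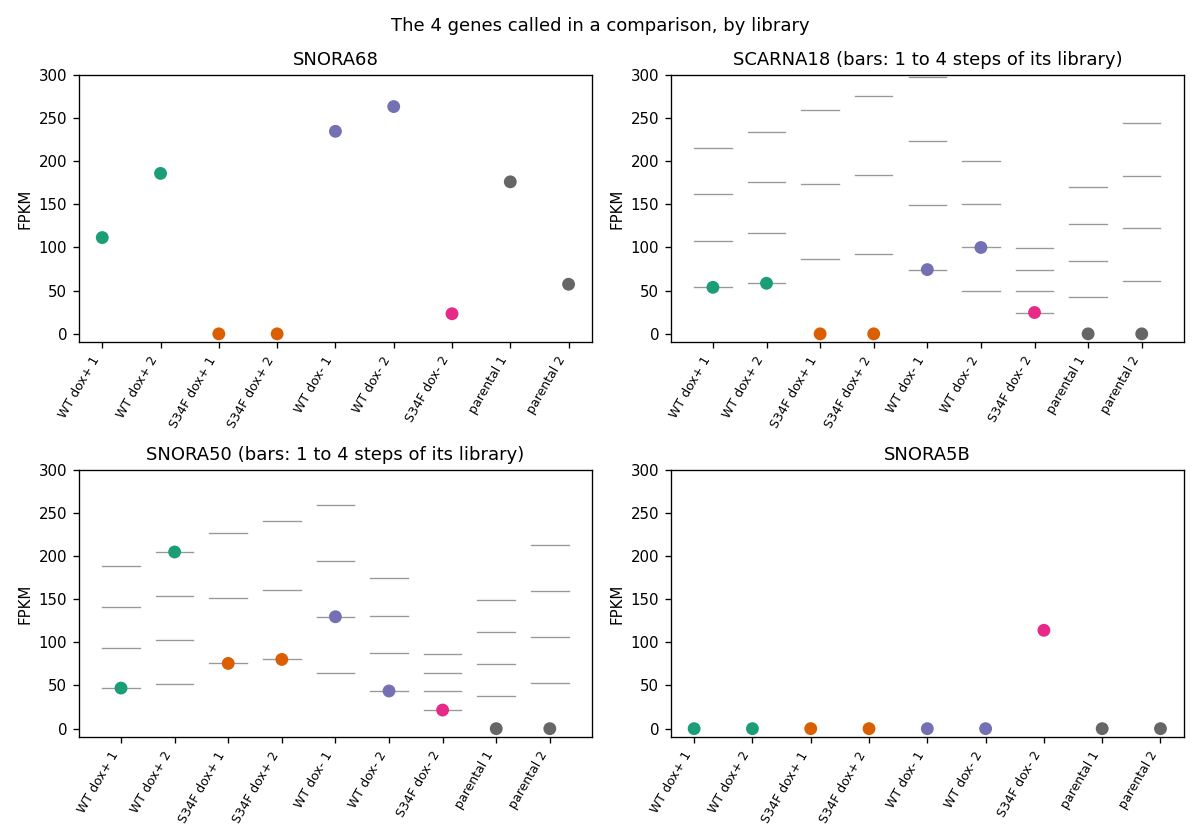
FPKM of the 4 genes called in any comparison, by library (points, coloured by group). Grey bars mark 1 to 4 steps of each library for the 2 genes placed in a set of steps. SNORA68 was in no set, yet its values above 0 were only 0.94 to 5.26 times the step of the first set. SCARNA18 lies at 0, 1 or 2 steps in all 9 libraries. SNORA5B is above 0 in the S34F dox- library only, and that value alone made it a member, so its call is no test.

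Another 24 members did not overlap between these groups, 19 higher and 5 lower. With the pair above this gave 19 of 98 higher and 7 of 98 lower, where 20.5% and 15.3% of all genes tested did not overlap. Among members above 0 in all libraries whose groups did not overlap, the largest higher differences were in SCARNA3 (60.8 and 66.7 FPKM in WT dox+, 196.1 and 104.0 FPKM in S34F dox+, log2 difference 1.15 ± 0.70 SE), SNORA22 (ENSG00000207344.1; 107.8 and 234.3 against 432.8 and 275.8 FPKM, 1.12 ± 0.57) and SNORA52 (159.1 and 406.7 against 517.0 and 549.2 FPKM, 1.06 ± 0.37). None of the 3 was called, with limma adjusted p of 0.798, 0.759 and 0.654. Only SNORA59B and SNORA8 lay lower without overlap in that set. SNORA59B was at 20.6 and 12.2 FPKM in WT dox+ and 5.57 and 2.51 FPKM in S34F dox+ (-1.82 ± 0.96, limma adjusted p = 0.772), and SNORA8 at 1799 and 1377 against 1291 and 1301 FPKM (-0.28 ± 0.19, adjusted p = 0.819).

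SNORA59A, another H/ACA gene, was at 16.01 and 9.09 FPKM in WT dox+ and listed at 0 in both S34F dox+ libraries (limma adjusted p = 0.728). SCARNA8 went the other way, from 0 in both WT dox+ libraries to 215.2 and 114.4 FPKM in S34F dox+ (adjusted p = 0.602). These 2 had the same gap between the groups as the called genes, from 0 in both libraries to above 0 in both, and did not pass the test. Both were singled out after their values were seen. By class the median log2 difference was 0.20 over 12 C/D members and 0.19 over 15 Cajal body members, and 0.00 over 71 H/ACA members, beside 0.03 over all genes tested. The median over all members was 0.08 in FPKM and 0.00 in TPM.

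**Figure D5:**
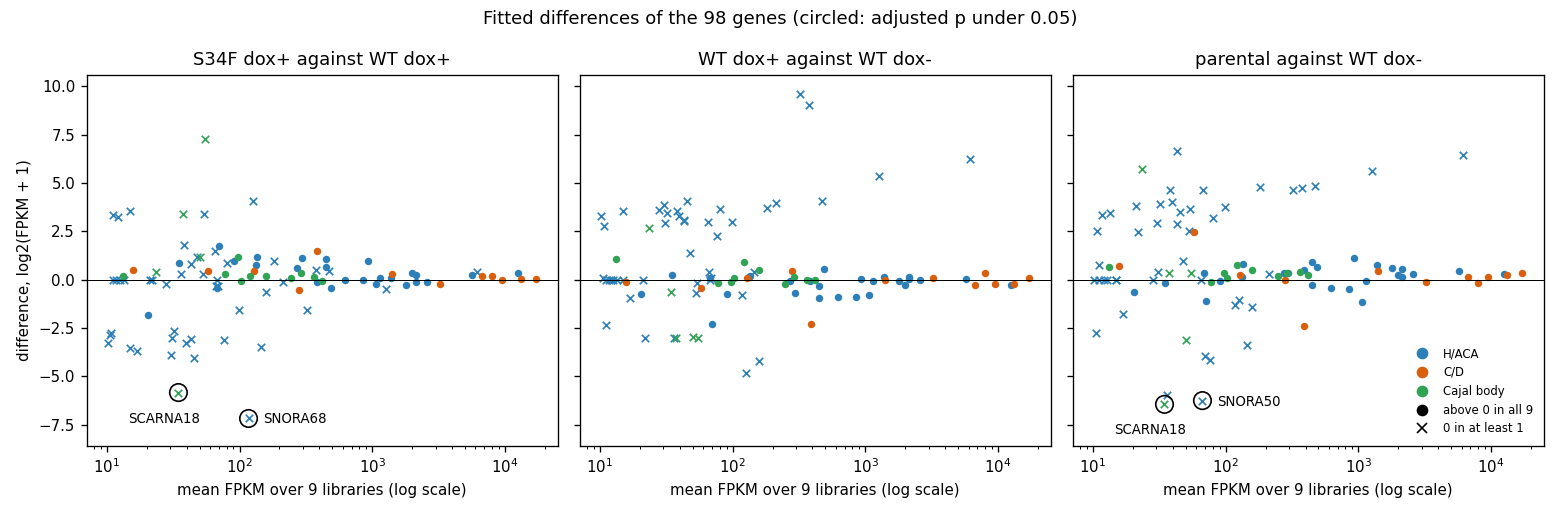
Fitted difference on the log2(FPKM + 1) scale (vertical axis) against mean FPKM (horizontal log axis) for the 98 genes in 3 comparisons, with circles around genes with an adjusted p under 0.05. Members above 0 in all libraries (dots) lie inside the span of members listed at 0 in at least 1 library (crosses), which reach -7.18 and 9.61.

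The effect of inducing wild type U2AF1 was compared within its line, WT dox+ against WT dox-. No member was called in limma in either direction, where 0.00659% of genes were called higher and 0.00659% lower. Before adjustment 5 members were higher with a p under 0.05 and 3 lower, beside 8.8% and 5.59% of all genes. The smallest p belonged to SCARNA5, a Cajal body RNA within ATG16L1, at 80.8 and 71.2 FPKM in WT dox- and 151.3 and 135.8 FPKM in WT dox+ (log2 difference 0.91 ± 0.12 SE, adjusted p = 0.0767). It was at 178.1 and 150.5 FPKM in S34F dox+, 64.7 FPKM in S34F dox- and 125.9 and 129.6 FPKM in parental cells, so all 4 induced libraries lay above all 3 uninduced libraries of the lines. SCARNA6, from the same host, was at 248.9 and 248.3 FPKM in WT dox- and 274.1 and 281.5 FPKM in WT dox+ (0.16 ± 0.14, adjusted p = 0.638). SCARNA7 was at 112.8 and 122.8 FPKM in WT dox- and 166.9 and 162.7 FPKM in WT dox+ (0.48 ± 0.15, adjusted p = 0.241). SCARNA5 was chosen after its values were seen, and it was called with a robust prior (adjusted p = 0.0482).

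SNORA31 (ENSG00000199477.1) and SNORA3 were the 2 members above 0 in all 4 dox+ libraries and at 0 in the 3 dox- libraries of the lines, and none had the reverse pattern. SNORA31 (ENSG00000199477.1) was at 724.8 and 392.4 FPKM in WT dox+, 580.7 and 988.0 FPKM in S34F dox+, 729.7 FPKM in parental replicate 1 and 0 in the other 4 libraries. SNORA3, within RPL27A, was at 716.7 and 854.5 FPKM in WT dox+, 113.9 and 603.1 FPKM in S34F dox+, 603.0 FPKM in parental replicate 1 and 0 in the same 4. In the fit of all groups their adjusted p values were 0.199 and 0.184. With only WT dox+ and WT dox- fitted both were called higher (0.00219 and 4.87e-05), and without either parental library SNORA31 (ENSG00000199477.1) alone was (0.00252 without replicate 1, 0.00308 without replicate 2). Their shared pattern was seen in the data before it was described. The dox+ libraries were also those in which more genes reached 1 FPKM, and the part of that difference in this pattern was not tested.

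Without overlap, 14 of 98 members were higher and 14 lower in WT dox+, where 28.9% and 20.8% of all genes tested were. The count of calls depended on single libraries, being 2 without WT dox+ replicate 1, 4 without WT dox- replicate 2, of which 3 were higher, and 1 without either parental library. Without WT dox- replicate 2 the only WT dox- library left was the one that listed SNORA18 (ENSG00000207145.1), SNORA63 (ENSG00000200320.1) and SNORA20 at 0, and these were the 3 called higher.

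Parental cells were compared with WT dox-, which carry the uninduced construct. SCARNA18 was at 74.4 and 100.0 FPKM in WT dox- and listed at 0 in both parental libraries (limma adjusted p = 1.17e-05, fitted log2 difference -6.45, SE 0.17). SNORA50, an H/ACA RNA within CNOT1, was at 129.6 and 43.6 FPKM in WT dox- and listed at 0 in both parental libraries (adjusted p = 0.0336, -6.25, SE 0.68). Of the 98 members 2 were thus called lower and none higher, beside 0.0395% and 0.0593% of all genes. Before adjustment 16 were higher with a p under 0.05 and 6 lower, beside 6.54% and 5.79% of all genes. SNORA71D, an H/ACA gene in the same set of steps as SCARNA18, was at 1 step in both WT dox- libraries (74.4 and 50.0 FPKM) and also at 0 in both parental libraries. It was not called (-5.95, SE 2.27, adjusted p = 0.356), and its replicates in WT dox+ and in S34F dox+ were at 0 and 1 step. SNORA71D was singled out after its values were seen. SNORA68 was at 234.6 and 263.2 FPKM in WT dox- and 176.1 and 57.4 FPKM in parental cells (-1.29, SE 0.46, adjusted p = 0.326). CNOT1 was between 243.9 and 295.4 FPKM in all 9 libraries.

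The call of SNORA50 was lost in 10 of 20 alternatives. They were without WT dox- replicate 1 (limma adjusted p = 0.224), without parental replicate 1 (0.244) or 2 (0.190), without S34F dox+ replicate 1 (0.139) or 2 (0.115), with 10 (0.164) or 50 (0.335) added in place of 1, with no minimum FPKM (0.212), with the replicate block (0.103) and with a robust prior (0.0983). SCARNA18 was called in 20 of 20 alternatives in this comparison and in that of S34F dox+ with WT dox+. Its value was 0 in both libraries of S34F dox+ and of parental cells, so these groups added no spread to its SE, and it took only 1 or 2 steps elsewhere. Members called numbered 8 without parental replicate 2, 5 without WT dox- replicate 2 and 1 without parental replicate 1 or without either S34F dox+ library.

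Without overlap, 25 of 98 members were higher in parental cells and 12 lower, where 22.4% and 21.6% of all genes tested were. By class 7 of 15 Cajal body members, 4 of 12 C/D members and 14 of 71 H/ACA members were higher without overlap. Over the 98 members the median log2 difference was 0.33, and it was 0.32 with median-ratio scaling, 0.29 with quantile normalization and 0.23 in TPM, but 0.067 without parental replicate 1 and 0.19 without WT dox- replicate 1, beside 0.00 over all genes tested in FPKM and -0.09 in TPM. Among C/D members, 2 U3 genes differed most, in opposite directions. SNORD3B-1 was at 261.8 and 1364 FPKM in WT dox- and 132.3 and 94.96 FPKM in parental cells (log2 difference -2.41 ± 1.14 SE, limma adjusted p = 0.453). SNORD3D lay higher in both parental libraries (48.0 and 14.95 FPKM in WT dox-, 110.1 and 214.6 FPKM in parental cells, 2.47 ± 0.54 SE, limma adjusted p = 0.155). SNORD17 was at 1215 and 1289 FPKM in WT dox- and 1672 and 1746 FPKM in parental cells (0.45 ± 0.11, adjusted p = 0.205). None of the 3 passed the test, and SNORD17 was chosen here after its values were seen. This comparison and the preceding one share the WT dox- libraries.

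The last comparison set the doxycycline response of the S34F line against that of the WT line, with a single S34F dox- library. With 1 library in that group, the fit assumed that it varied like the groups with 2. Here 2 members were below the threshold and lower, SCARNA18 (log2 difference of the responses -4.07, SE 0.28, limma adjusted p = 0.00375) and SNORA5B, and none higher, where 0.0198% and 0.00659% of all genes were. Before adjustment 11 were higher with a p under 0.05 and 4 lower, beside 2.21% and 1.21% of all genes. SCARNA18 was at 24.7 FPKM in the S34F dox- library, 1 step there, and at 0 in both induced ones. SNORA5B was at 113.9 FPKM in the S34F dox- library and listed at 0 in the other 8 libraries, and that value alone also brought it over the limit of 10 FPKM. Its fitted difference of -6.84 therefore restates how it was chosen and is given as a description, with no test. SNORA68 was at 23.3 FPKM in S34F dox- and 0 in S34F dox+ (-3.82, SE 0.73, adjusted p = 1).

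With 10 added in place of 1, SCARNA18 was no longer called here (limma adjusted p = 0.593). No member was called without WT dox+ replicate 2 in limma, where 10 were higher and 5 lower with a p under 0.05 before adjustment. There were 6 without WT dox+ replicate 1, 4 without WT dox- replicate 2 and 1 without WT dox- replicate 1.

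By log2(FPKM + 1) over the 9 libraries, the members most like SNORA68 were SNORA59A (Pearson r = 0.76), SNORA59B (0.73) and SCARNA18 (0.64). The members most like SCARNA18 were SNORA68 (0.64), SNORA59A (0.62) and SNORA67 (0.57), and those most like SNORA5B were SNORA42 (0.51), SNORA47 (0.40) and SNORA80B (0.37). These values describe 9 libraries that share their steps and zeros, and no p is given.

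Among the members 7 names were shared by more than 1 gene, for 14 genes in all, and the copies could stand at different levels. SNORA31 (ENSG00000253051.1) was at 2077 to 3139 FPKM in all libraries, while SNORA31 (ENSG00000199477.1), within the same host TPT1, was listed at 0 in 4 of them. Reads from such copies, and from SNORA71A, SNORA71C and SNORA71D or SNORA7A and SNORA7B, may be divided between genes, which makes the value of each uncertain.

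The mRNAs of proteins that bind and mature these RNAs were examined alongside. All 25 genes of 3 lists, H/ACA proteins (6), C/D proteins (11) and Cajal body or maturation factors (8), were tested, and none was called in limma in any of the 4 comparisons. Between S34F dox+ and WT dox+ none passed an unadjusted p under 0.05 either. Between WT dox+ and WT dox- 8 of 25 were lower with an unadjusted p under 0.05 and none was higher, beside 5.59% and 8.8% of all genes. In parental cells, compared with the same WT dox- libraries, 4 of 25 were lower by that measure (NOP56, RUVBL2, RPAP3 and PHAX). None was higher, and 5.79% of all genes were lower. Of the 7353 protein-coding genes, 614 were lower in parental cells and 588 higher. Among the 8 that were lower in WT dox+, fibrillarin (FBL), the methyltransferase of C/D particles, had a limma adjusted p of 0.169. It was at 180.1 and 165.6 FPKM in WT dox- and 133.6 and 127.8 FPKM in WT dox+. RUVBL2, an assembly factor of C/D particles, was at 113.6 and 108.4 FPKM in WT dox- and 83.9 and 79.0 FPKM in WT dox+. Dyskerin (DKC1) was at 219.3 and 184.1 FPKM in WT dox- and 144.7 and 165.2 FPKM in WT dox+. The median difference between WT dox+ and WT dox- was -0.37 over the C/D proteins and -0.22 over the H/ACA proteins. It was 0.05 over all genes tested and -0.04 over the 7353 protein-coding genes.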

How the data were processed

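Total RNA of HCC78 lines was prepared with a stranded total RNA kit, sequenced in pairs and trimmed by the authors. RNA had been extracted, per the labels, on RNeasy columns, which are known to retain short RNAs poorly. What this did to the values was not tested. The authors aligned reads with STAR 2.3.0 and computed gene-level values with RSEM 1.2.29, on GRCh37/hg19 per the labels. The deposited table holds FPKM and TPM for each gene in 9 libraries, with no counts, so depth is unknown and no counting interval is given. Both units were made by the authors. How zeros arise for short RNAs was not tested.

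The study's count test needs counts, so limma 3.58.1 (R 4.3.3, trend, two-sided, Benjamini-Hochberg) was fitted to log2(FPKM + 1) over all 9 libraries in 5 groups, for 15179 genes that averaged 1 FPKM or more. A fold change on this scale understates the change of low genes. The fit was also run on simulated data with normally distributed spread. These held no zeros or steps like those of the members, so that run does not bear on the calls of members. Summaries used Python 3.11.15.

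Sets of steps were opened by members with identical values in at least 2 libraries and grown by members whose values were whole multiples, with a smallest step of 15 FPKM. Host names came from RefSeq (GRCh38.p14), with no coordinates taken. The values of 1 host gene are not reported here. No sequence of a member was held in the tables used here, so none is printed. Splicing tables and iCLIP samples were not used here.

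The members, gene lists and tests were chosen with earlier results of these data known. Named were the 3 markers, members called, the 5 highest and 3 steadiest per class, those at the limit, the genes with promoters or processing roles of their own, the largest non-overlapping changes, members above 0 in 1 library and those most like the markers. Others are said to be chosen after their values were seen. Alternatives were 2 pseudocounts (and 50, chosen after seeing the data), no minimum or a minimum of 5 FPKM, median-ratio and quantile scaling, TPM, a replicate block, fewer libraries, a robust prior and leaving out each library. Replicate numbers did not pair the samples.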

Additional observations from a re-analysis of the deposited data

Results flagged for a closer look

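The interaction term of line and doxycycline in limma passed the threshold for SCARNA18 and SNORA5B, with a single S34F dox- library that was assumed to vary like the groups with 2. For SCARNA18 the difference of the responses was -4.07 on the log2(FPKM + 1) scale. In the S34F line it went from 24.7 FPKM in the single dox- library to 0 in both induced libraries. In the WT line it stood at 74.4 and 100.0 FPKM uninduced and at 53.9 and 58.6 FPKM induced. The WT means were 87.2 and 56.2 FPKM, so in FPKM the fall was larger in the WT line. The difference therefore depends on the log scale, the zeros and the added 1. For SNORA5B the difference was -6.84, with 113.9 FPKM in the S34F dox- library and 0 in the other 8. That value alone made it a member, so its difference restates the choice and is given as a description. No group held 4 libraries, so no group was examined for a library standing apart.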

How the results depend on the processing

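Calls depended on the processing. Between S34F dox+ and WT dox+ the 2 members called became 1 with no minimum FPKM and 1 with 50 added, and ranged from 2 to 4 when a library was left out. Between WT dox+ and WT dox- the count of 0 became 2 with only the libraries compared and 1 with a robust prior, and ranged from 0 to 4. Between parental and WT dox- the count of 2 became 1 with 10 added, no minimum, the replicate block, a robust prior or 50 added, and 4 with only the libraries compared, and ranged from 1 to 8. For the response it became 1 with 0.1, 10 or 50 added, a minimum of 5 FPKM or the replicate block, and ranged from 0 to 6. The cause was not tested. The 2 members counted for the response include SNORA5B, which its value in a single library made a member, so its part in that count is no test. Under the replicate block SNORA50 (adjusted p = 0.103) was not called in limma, and SCARNA18 and SNORA68 were. Same-numbered libraries did not deviate together (correlations of -0.08 to 0.04), so the numbers were not taken as pairs. Over all genes the calls were 8, 2, 15 and 4 in the 4 comparisons and ranged over the alternatives from 3 to 28, 0 to 25, 3 to 28 and 2 to 33. For SNORA68 the response turned to 0.062 with 50 added, and for TMEM167A the difference between S34F dox+ and WT dox+ to -0.068 without WT dox+ replicate 2, within a range of -0.068 to 0.34 when a library was left out.

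For the classes, a mean of at least 50 FPKM moved the share of zeros from 32.7% to 14.6% for H/ACA and from 16.3% to 8.08% for Cajal body members, and a mean of at least 5 FPKM moved the latter to 24.8%. With the limit of 50 the median level, 53.2 FPKM for H/ACA, 2341 FPKM for C/D and 80.8 FPKM for Cajal body members over the libraries, became 322.1, 3185 and 129.6 FPKM. With genes of type snoRNA only, the C/D level became 6638 FPKM and the C/D difference between replicates went from 0.29 to 0.18. Depth is unknown, and a listed 0 sets no limit on the RNA.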
